A study of Mus musculus with 12 samples.

Results

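The genes described here are the receptors, receptor adaptors and ligands of insulin-like signalling, with the RNA gene H19 that lies beside Igf2. They are 8 of the 49315 genes in the count tables: the adaptors Irs1 and Irs2, the receptors Insr, Igf1r and Igf2r, the ligands Igf1 and Igf2, and H19. All 8 were matched by mouse symbol. They were chosen with results of these libraries known: Irs1 and Irs2 were selected on their measured difference between PNU and DMSO at 2 h, and the others as members of the same pathway. That comparison is therefore given for all 8 genes as a description, with no test.

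RNA came from wild-type mouse cells labelled as primary Müller glia, the main glia of the retina, which had shared transwell plates with primary retinal pigment epithelial (RPE) cells. Those RPE cells had been given PNU-282987 at 100 nM, called PNU from here on, which activates the alpha-7 nicotinic acetylcholine receptor, or the solvent DMSO, whose concentration is 0.1% in one label and 1% in another. The 12 poly(A) libraries form 4 groups of 3: DMSO for 2 h, PNU for 2 h, DMSO for 6 h and PNU for 6 h. All groups share the serum-fed culture of the glia and 4 passages; strain, age and sex are not given in the sources used here, and no label says whether replicates came from separate animals or cultures. The comparisons ask whether the glia respond to what treated RPE cells release.

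The 12 totals lay between 44332013 and 66518799 counts. Levels are CPM, counts relative to the total of their library, or CPM per kilobase of exon length where genes are compared with each other. A count of 3, taken as the floor of detection, was worth 0.0451 to 0.0677 CPM, and it covers counting error only. The Müller glia label was only partly met: 9 of 20 marker genes had a median above 1 CPM. Vim stood at 6063 to 7451 CPM and Glul at 61.5 to 94.4 CPM, but Rlbp1 reached at most 0.302 CPM and Aqp4 at most 0.218 CPM. Of 15 fibroblast markers 13, and of 12 pericyte and smooth muscle markers 9, had a median above 1 CPM. Of 12 RPE markers 1 did, and 6 never rose above the floor.

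Several libraries stood apart or nearly coincided. Replicates 2 and 3 of PNU at 2 h, replicates 2 and 3 of PNU at 6 h, and all 3 DMSO replicates at 6 h had pairwise coefficients of variation of 0.0163 to 0.0223. Other pairs within a group ranged from 0.147 to 0.380. The close pairs still differed by more than counting noise, with chi-square values of 2.01 to 3.24 per degree of freedom. That excess cannot tell technical repeats from separate cultures. They were kept as separate libraries in the main fit, and results with them summed are also given. SDs and p-values over them measure only the spread between these libraries, which may be technical. Where groups are said below not to overlap, nearly coinciding libraries count as separate. The share of all genes without overlap was not counted. Replicate 3 of DMSO at 2 h lay nearest to replicate 1 of PNU at 2 h, at a log2 distance (root mean square over genes) of 0.202, while its mean distance to its own group was 0.605. Replicate 1 of PNU at 6 h lay nearest to replicate 1 of DMSO at 6 h, at 0.281, while its own group lay at 0.441. In all, 5 libraries lay nearest to one outside their group: the others were replicate 1 of PNU at 2 h, nearest to that DMSO replicate (own group at 0.276), and replicates 1 and 2 of DMSO at 2 h, nearest to DMSO libraries at 6 h (0.264 and 0.174, own group at 0.467 and 0.437). Whether a library carries the label of another was not tested. Replicate 3 of DMSO at 2 h and replicate 1 of PNU at 6 h are called the libraries that stand apart, and results that rest on them are given with and without them. With both left out, or only replicate 1 of PNU at 6 h, each group at 6 h holds only nearly coinciding libraries, 1 unit when these are summed. Calls in those settings are said below to be on the narrow spread, that of the 6 h groups. The fit pools the spread of all remaining libraries, so the wider 2 h groups still enter it. With only replicate 1 of PNU at 6 h left out, replicate 3 of DMSO at 2 h also enters it. Calls on the narrow spread are given without p-values, except within ranges over fits with a library left out.

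As background, insulin binds its receptor Insr, and IGF1 and IGF2 bind Igf1r. Both receptors are tyrosine kinases that phosphorylate the adaptor proteins IRS1 and IRS2, which recruit PI3-kinase and so activate AKT and mTORC1 and keep FOXO factors out of the nucleus. Igf2r, the cation-independent mannose-6-phosphate receptor, has no kinase and carries IGF2 to lysosomes. Igf2 and H19 are imprinted neighbours: the paternal copy of Igf2 and the maternal copy of H19 are usually the ones transcribed, under a shared control region. In the retina, IGF1 and insulin are known to promote neuron survival and, with growth factors, the proliferation of Müller glia in some vertebrates.

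The promoters of the adaptors are shown because Irs1 and Irs2 differed in opposite directions at 2 h and yet share a stretch of letters near their RefSeq start sites. The windows run from 250 bases before to 50 bases after the start given by RefSeq on GRCm38.p6, read 5′ to 3′ on the minus strand of each gene, with the E-box CACGTG in capitals. The E-box is a pattern read by bHLH factors such as USF1, MYC and TFE3. The Irs1 window is chr1:82291390-82291689 and the Irs2 window is chr8:11008880-11009179.
Irs1: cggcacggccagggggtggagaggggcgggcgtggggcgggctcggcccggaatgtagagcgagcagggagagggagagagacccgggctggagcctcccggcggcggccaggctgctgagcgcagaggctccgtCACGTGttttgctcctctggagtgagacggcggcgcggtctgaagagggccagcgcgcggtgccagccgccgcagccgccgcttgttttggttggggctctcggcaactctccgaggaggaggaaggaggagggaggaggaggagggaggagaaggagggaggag
Irs2: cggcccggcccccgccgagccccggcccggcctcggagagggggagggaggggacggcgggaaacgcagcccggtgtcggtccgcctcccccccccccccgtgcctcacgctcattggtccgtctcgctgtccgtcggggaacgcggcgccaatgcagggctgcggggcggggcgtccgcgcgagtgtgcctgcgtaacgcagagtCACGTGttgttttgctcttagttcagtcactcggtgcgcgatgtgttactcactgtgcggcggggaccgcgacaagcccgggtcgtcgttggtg
The E-box begins 115 bases before the RefSeq start site in Irs1 and 44 bases before it in Irs2. The gene coordinates used for counting begin Irs2 elsewhere, at 11008458 on the minus strand, so its whole window lies upstream of that start. For Irs1 the counted start, 82291416, lies within the window. The 2 windows share 2 runs of 10 bases, GTCACGTGTT and TGTTTTGCTC, which overlap each other in both genes. Each run, on either strand, was in 25 of 32851 promoter windows (0.0761%), and the 2 windows that held both were those of Irs1 and Irs2. The runs were found by comparing these windows, so their rarity is a description. CACGTG was in 7.15% of all windows and GTCACGTG in 2.25%. Among the members with a window (Irs1, Irs2, Igf1r, Igf2r and Igf1 with 1 each and Igf2 with 4), Igf2r also held both patterns, with E-boxes 48 and 7 bases before its start. TGTTTTG, part of the second run and a pattern of insulin response elements, was in Irs1, where 1 of 2 matches overlaps the E-box, and in Irs2, and in 6.28% of all windows. TGACG, the short form of the cAMP response element, was in Irs1, where it overlaps the E-box on the opposite strand, in Igf2r, where 2 of 3 matches overlap its E-boxes, and in Igf2, and in 20.8% of all windows. The full element TGACGTCA (1.79% of windows), GTAAACA, 1 form of FOXO pattern (3.65%), and the NR4A pattern AAAGGTCA (1.51%) were in none of the members' windows. Both strands were searched for every pattern, and a match is a description of letters and not a site.

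The adaptors differed in opposite directions at 2 h: with PNU, Irs1 was low and Irs2 high in every library. Irs1 (ENSMUSG00000055980, GRCm38 chromosome 1, 82233101 to 82291416, minus strand) stood at 116.9, 111.3 and 46.7 CPM with DMSO at 2 h and at 25.5, 27.7 and 29.6 CPM with PNU. The groups did not overlap, and the lowest DMSO library was replicate 3, which stands apart. Group means were 91.7 ± 39.0 and 27.6 ± 2.02 CPM (SD, n = 3), a log2 fold change of -1.70 ± 0.26 (SE), or -2.01 without that library. Irs2 (ENSMUSG00000038894, chromosome 8, 10984681 to 11008458, minus strand) stood at 28.9, 24.8 and 34.9 CPM with DMSO and at 64.1, 59.8 and 62.4 CPM with PNU. The groups again did not overlap, and the PNU libraries lay close together. The log2 fold change was 1.10 ± 0.12 (SE), and 1.24 without replicate 3 of DMSO. This is the contrast that chose the 2 genes, and over all genes 0.291% passed the test there (50 of 17164). In these bulk samples fewer cells of a type and less RNA per cell cannot be told apart.

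Set per length, Irs2 was the more abundant adaptor transcript with PNU at 2 h and Irs1 in most other libraries. The ratio of Irs2 to Irs1 per kilobase was 0.358, 0.322 and 1.08 with DMSO at 2 h and 3.63, 3.12 and 3.05 with PNU. The higher DMSO value belongs to replicate 3, whose adaptors were near equal. At 6 h the ratio was 0.551, 0.494 and 0.494 with DMSO and 0.865, 0.771 and 0.715 with PNU, so Irs1 was again the more abundant in all 6 libraries. The summed level of both adaptors differed less than either gene at 2 h. It was 14.7 ± 3.58 CPM per kilobase with DMSO and 12.8 ± 0.315 with PNU at 2 h, and 14.7 ± 0.307 and 12.8 ± 0.639 at 6 h (SD, n = 3). The DMSO range at 2 h, 10.6 to 17.4, contains the PNU range of 12.5 to 13.1. At 6 h the ranges did not overlap, with 14.4 to 15.0 for DMSO and 12.1 to 13.3 for PNU.

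**Figure D1:**
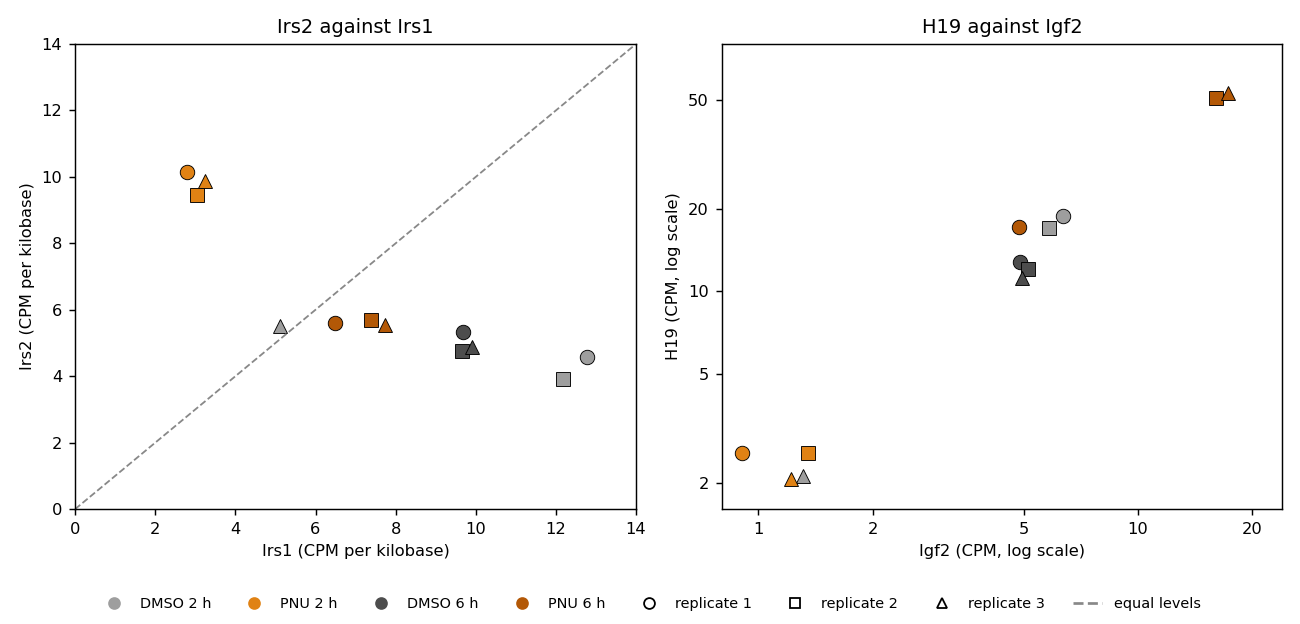
Left, the level of Irs2 against that of Irs1 in each of the 12 libraries, both in CPM per kilobase, with a dashed line of equal levels: the 3 libraries of PNU at 2 h lie above the line with ratios of 3.05 to 3.63, and replicate 3 of DMSO at 2 h lies near it at 1.08. Right, H19 against Igf2 in CPM on log axes: replicates 2 and 3 of PNU at 6 h lie highest and replicate 3 of DMSO at 2 h lies among the PNU libraries at 2 h.

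At 6 h the adaptor differences were smaller and did not pass the test. Irs1 stood at 88.6, 88.3 and 90.5 CPM with DMSO and at 59.2, 67.5 and 70.8 CPM with PNU, so every PNU library was lower. Its log2 fold change was -0.42 ± 0.26 (edgeR adjusted p = 0.467). Irs2 stood at 33.7, 30.1 and 30.9 CPM with DMSO and at 35.4, 36.0 and 35.0 CPM with PNU, every PNU library being higher, with a log2 fold change of 0.18 ± 0.12 (edgeR adjusted p = 0.497). None of the 8 genes passed at 6 h, where 1.05% of all genes did (181 of 17164). An unadjusted p under 0.05 was reached by 4 of the 8 (Insr, Igf1, Igf2 and H19), and by 2683 of the 17164 genes. With only the 6 libraries of this comparison in the fit, Irs1 passed at the same fold (edgeR adjusted p = 0.0162; 10.1% of all genes passed), a fit in which the 3 DMSO libraries nearly coincide. Without both libraries that stand apart it was -0.35 and passed on the narrow spread, as 28.6% of all genes did.

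Across time, the adaptors' fold changes were larger with PNU than with DMSO. From 2 h to 6 h with PNU, Irs1 had a log2 fold change of 1.19 ± 0.26 (SE) and Irs2 of -0.87 ± 0.12 (SE), given as descriptions because the 2 h libraries chose these genes. With DMSO the corresponding values were -0.08 ± 0.25 and 0.05 ± 0.12. Without replicate 3 of DMSO at 2 h, the Irs1 value with DMSO was -0.40. Every PNU library at 2 h held less Irs1, and more Irs2, than any library of the other groups.

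**Figure D2:**
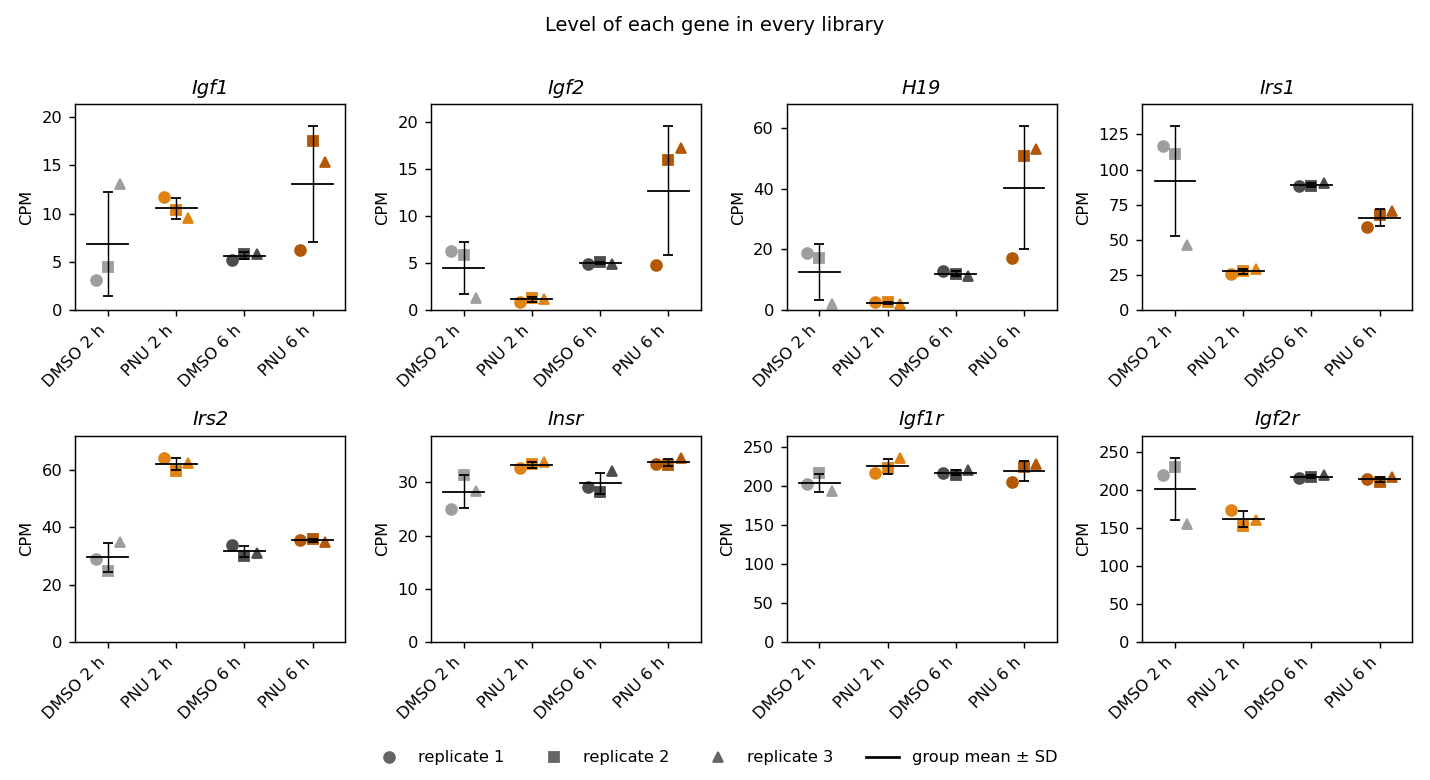
The level of each of the 8 genes in CPM (vertical axes from 0) in every library of the 4 groups, with marker shape for the replicate number and a line and bar for the group mean ± SD (n = 3). Irs1 is lowest and Irs2 highest in the 3 libraries of PNU at 2 h, Igf1r keeps to 193 to 235 CPM throughout, and Igf2 and H19 are highest in replicates 2 and 3 of PNU at 6 h.

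The kinase receptors varied least. Igf1r (ENSMUSG00000005533, chromosome 7, 67952827 to 68233668, plus strand) stood between 192.6 and 235.3 CPM in all 12 libraries, a ratio of highest to lowest of 1.22. Its levels were 201.5, 216.3 and 192.6 CPM with DMSO and 215.7, 222.5 and 235.3 CPM with PNU at 2 h, and 216.1, 213.1 and 220.1 CPM with DMSO and 204.0, 223.9 and 227.3 CPM with PNU at 6 h. The groups overlapped at both times, and the log2 fold change for PNU was 0.18 ± 0.07 (SE) at 2 h and 0.03 ± 0.07 at 6 h (edgeR adjusted p = 0.883).

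Insr (ENSMUSG00000005534, chromosome 8, 3122061 to 3279617, minus strand) was the less abundant kinase receptor. It stood at 25.0, 31.3 and 28.4 CPM with DMSO and 32.7, 33.4 and 33.9 CPM with PNU at 2 h. At 6 h it stood at 29.1, 28.2 and 32.1 CPM with DMSO and at 33.4, 33.4 and 34.6 CPM with PNU. Every PNU library was thus above every DMSO library of its time, by small amounts: the log2 fold change was 0.28 ± 0.08 (SE) at 2 h and 0.19 ± 0.08 at 6 h (edgeR adjusted p = 0.267). How many of all genes were separated in this way was not counted. Per kilobase, Igf1r exceeded Insr in all 12 libraries, by 4.99 to 6.59 times.

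Igf2r (ENSMUSG00000023830, chromosome 17, 12682406 to 12769664, minus strand), the scavenger receptor of IGF2, was the most abundant member per kilobase, with a median of 22.7 CPM per kilobase. At 2 h it stood at 219.4, 229.1 and 154.7 CPM with DMSO and at 172.8, 152.7 and 159.5 CPM with PNU. The groups overlapped only through replicate 3 of DMSO, and the log2 fold change moved from -0.28 ± 0.12 (SE) to -0.43 without it. At 6 h the levels were 214.7, 217.2 and 218.9 CPM with DMSO and 213.9, 209.5 and 216.7 CPM with PNU, which overlap (log2 fold change -0.01 ± 0.12, edgeR adjusted p = 0.980). From 2 h to 6 h with PNU the change was 0.34 ± 0.12 (edgeR adjusted p = 0.0760), with every 6 h library above every 2 h library. It passed with DESeq2 (0.34, adjusted p = 0.0459; 24.3% of all genes passed) and, on the narrow spread, without both libraries that stand apart (0.34; 35.4% passed). Airn, the RNA transcribed across Igf2r from the opposite strand, stood at 0.762 to 2.03 CPM, and no source used here says whether the counting used strand.

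The ligands and H19 were the members that differed most between libraries, with ratios of highest to lowest level of 25.8 for H19, 19.1 for Igf2 and 5.58 for Igf1. The hormone genes Ins1 and Ins2 had 0 counts in every library, a limit of at most 0.0677 CPM. In CPM per kilobase, the medians over 12 libraries placed the members in the order Igf2r (22.7), Igf1r (12.9), Irs1 (7.56), Irs2 (5.53), H19 (5.23), Insr (2.36), Igf2 (0.860) and Igf1 (0.797). The ranges of Igf2r and Igf1r over the libraries did not overlap, and those of all other neighbours in this order did.

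Igf2 and H19 rose from 2 h to 6 h with PNU, and in that comparison they were the members that passed, 2 of the 6 tested, beside 16.1% of all genes (2759 of 17164). Igf2 (ENSMUSG00000048583, chromosome 7, 142650766 to 142666816, minus strand) stood at 0.906, 1.35 and 1.22 CPM with PNU at 2 h and at 4.85, 16.0 and 17.3 CPM with PNU at 6 h. Every 6 h library was above every 2 h library, and replicate 1 at 6 h was the lowest of its group. The log2 fold change was 3.39 ± 0.59 (edgeR adjusted p = 0.00763). H19 (ENSMUSG00000000031, chromosome 7, 142575529 to 142578143, minus strand) stood at 2.56, 2.57 and 2.06 CPM at 2 h and at 17.1, 50.7 and 53.2 CPM at 6 h. The groups did not overlap, and replicate 1 was again the lowest at 6 h. Its log2 fold change was 4.02 ± 0.70 (edgeR adjusted p = 0.00840). Both calls held when each library of the comparison was left out in turn, with edgeR adjusted p-values of 0.00262 to 0.0400 for Igf2 and 0.00551 to 0.0450 for H19. In those fits, leaving out replicate 1 of a PNU group leaves only nearly coinciding libraries in that group. Neither held when the nearly coinciding libraries were summed and counted once, which leaves 2 libraries in each PNU group (3.23 for Igf2 and 3.78 for H19, edgeR adjusted p = 0.410 for each).

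With DMSO the same 2 genes did not pass between the times, and no gene of the whole table did (0%, 0 of 17164 with edgeR, 818 at an unadjusted p under 0.05 and 23 with DESeq2). Igf2 stood at 6.35, 5.83 and 1.31 CPM at 2 h and at 4.89, 5.12 and 4.95 CPM at 6 h. H19 stood at 18.8, 17.1 and 2.11 CPM at 2 h and at 12.8, 12.1 and 11.2 CPM at 6 h. In both genes replicate 3 at 2 h was the low library and lay within the range of the PNU libraries at 2 h. The log2 fold changes were 0.11 ± 0.53 for Igf2 and -0.11 ± 0.62 for H19 (edgeR adjusted p = 0.984 and 0.986). Without both libraries that stand apart they were -0.33 and -0.62, and H19 then passed on the narrow spread, beside 0.672% of all genes.

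Against DMSO, Igf2 and H19 were lower with PNU at 2 h and higher at 6 h. At 2 h the log2 fold changes were -1.92 ± 0.57 for Igf2 and -2.37 ± 0.67 for H19 (SE), and -2.36 and -2.88 without replicate 3 of DMSO. At 6 h they were 1.36 ± 0.53 for Igf2 (edgeR adjusted p = 0.246) and 1.76 ± 0.63 for H19 (edgeR adjusted p = 0.207). Every PNU library at 6 h was above every DMSO library for H19, while replicate 1 of PNU lay just under the DMSO libraries for Igf2. The highest levels of both genes were those of replicates 2 and 3 of PNU. With both libraries that stand apart left out the 6 h values were 1.75 and 2.13. Both genes then passed, but the comparison sets 1 unit of nearly coinciding libraries against 1 other.

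The change of the PNU effect from 2 h to 6 h was also tested, a test chosen after the values were seen, for the 6 members other than Irs1 and Irs2. It passed for none of them, and for 0.035% of all genes. The difference was 3.28 ± 0.78 on the log2 scale for Igf2 (edgeR adjusted p = 0.181) and 4.13 ± 0.92 for H19 (edgeR adjusted p = 0.162). Without replicate 3 of DMSO at 2 h it was 3.72 for Igf2 (edgeR adjusted p = 0.00339) and 4.64 for H19 (adjusted p = 0.00137), with 16.7% of all genes passing. Without replicate 1 of PNU at 6 h it was 3.67 and 4.50. Both then passed on the narrow spread, with 0.801% of all genes passing. Without both it was 4.10 and 5.01, and both passed on the narrow spread, with 21.8% of all genes passing. With the nearly coinciding libraries summed it was 3.11 and 3.89, neither gene passed (edgeR adjusted p = 1.00 for each, unadjusted 0.0489 and 0.0481) and no gene of the table did. Igf2r passed at 0.42 without replicate 3 of DMSO at 2 h (edgeR adjusted p = 0.0120) and, on the narrow spread, without both.

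**Figure D3:**
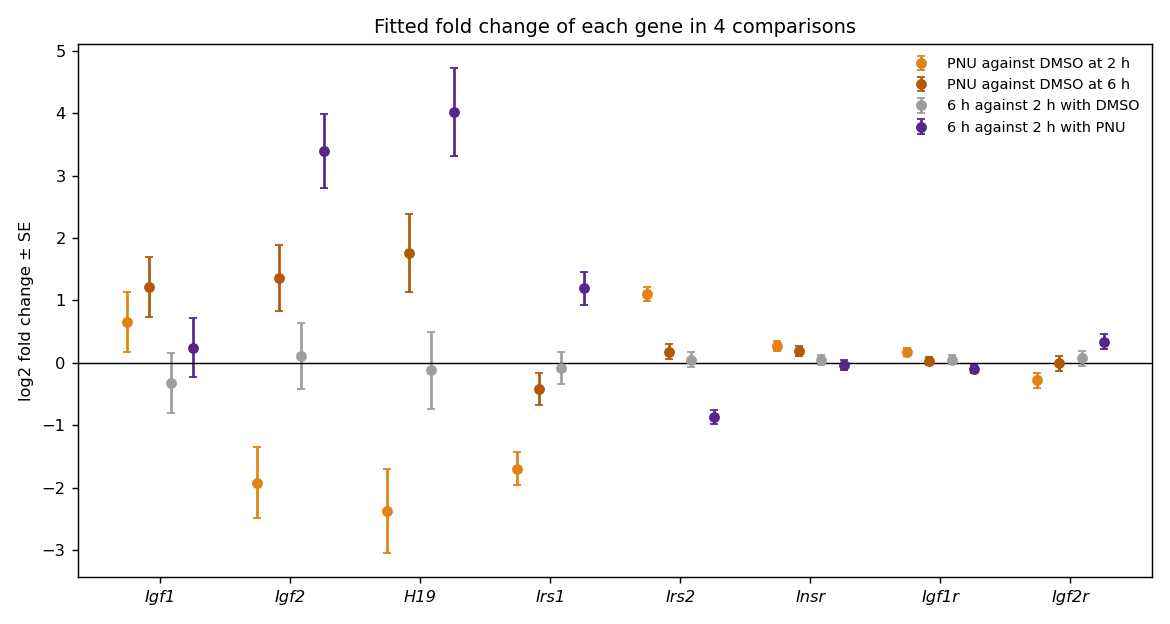
Fitted log2 fold change with its SE (vertical axis) for each gene in the 4 comparisons, from 1 fit over the 12 libraries. Igf2 and H19 lie at -1.92 and -2.37 for PNU against DMSO at 2 h and at 3.39 and 4.02 for 6 h against 2 h with PNU; comparisons that share a group are not independent of each other.

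Igf1 (ENSMUSG00000020053, chromosome 10, 87858265 to 87937042, plus strand), the growth factor that binds Igf1r, had another order of libraries. At 2 h it stood at 3.14, 4.44 and 13.0 CPM with DMSO and at 11.7, 10.4 and 9.55 CPM with PNU, with replicate 3 of DMSO the highest of all 6. The log2 fold change was 0.65 ± 0.48 (SE), and 1.52 without that library. At 6 h it stood at 5.23, 5.84 and 5.87 CPM with DMSO and at 6.24, 17.5 and 15.3 CPM with PNU. Every PNU library was higher, replicate 1 only slightly, and the log2 fold change of 1.22 ± 0.48 did not pass (edgeR adjusted p = 0.249); without both libraries that stand apart it was 1.55 and passed on the narrow spread. Over time it was 0.24 ± 0.47 with PNU (edgeR adjusted p = 0.737) and -0.32 ± 0.48 with DMSO (edgeR adjusted p = 0.944). With PNU it passed on that spread too (0.58).

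The ratio of H19 to Igf2 varied less over the libraries than either gene. Their genes lie 72622 bases apart on the same strand. H19 exceeded Igf2 per kilobase by 3.88 to 8.52 times over the 12 libraries, and the ratio was 7.86 ± 0.580 with PNU at 6 h and 5.81 ± 0.431 with DMSO at 6 h (SD, n = 3), ranges that did not overlap. At 2 h the ratio was 6.03 ± 1.86 with DMSO and 5.17 ± 1.46 with PNU, which overlap. Mir675, the microRNA gene inside H19, and Mir483, inside Igf2, had 0 counts in every library; poly(A) libraries do not measure mature microRNAs.

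Marks of the cultures also differed between libraries, only partly in step with these values. Ddx3y, a Y-linked gene, stood at 7.43 and 6.74 CPM in replicates 2 and 3 of PNU at 6 h, at 5.00 CPM in replicate 3 of DMSO at 2 h and at 2.23 CPM in replicate 1 of PNU at 2 h, and at or under 0.141 CPM in the other 8 libraries. Replicates 2 and 3 of PNU at 6 h thus had the highest Ddx3y, Igf2, H19 and Igf1 levels. Replicate 3 of DMSO and replicate 1 of PNU at 2 h were also high in Ddx3y. They were low in Igf2 (1.31 and 0.906 CPM) and in H19 (2.11 and 2.56 CPM). Replicates 2 and 3 of PNU at 2 h, at 0.0870 and 0.0150 CPM of Ddx3y, were among the lowest in Igf2 and H19. Xist, the X-linked RNA of female cells, was also highest in replicates 2 and 3 of PNU at 6 h (2.46 and 2.13 CPM), stood at 0.439 to 1.23 CPM in the other 6 h libraries and replicates 1 and 2 of DMSO at 2 h, and at 0.0469 to 0.133 CPM in the other 4, so it did not mirror Ddx3y. Sox2, a factor of Müller glia and progenitors, stood at 8.27 to 9.39 CPM in replicates 2 and 3 of both PNU groups and at or under 0.243 CPM in the other 8 libraries, and Pax6 at 12.2 to 14.9 CPM and at or under 0.574 CPM. Igf2 and H19 were low in the first of these pairs and high in the second, at like levels of Sox2 and Pax6. The 12 cell division genes summed to 576 to 1203 CPM with DMSO and 1046 to 1125 CPM with PNU at 2 h, and to 627 to 638 CPM with DMSO and 537 to 793 CPM with PNU at 6 h. From 2 h to 6 h with PNU 4 of the 12 fell and none rose (list median -0.74), beside 8.66% of all genes falling. With DMSO none passed between the times (list median -0.41). Of 15 fibroblast markers 2 rose over time with PNU and none fell. No gene of the whole table passed over time with PNU when the nearly coinciding libraries were summed. Marker sums of other cell types differed without overlap between PNU and DMSO at 6 h. The 8 leukocyte and microglia markers summed to 7.52 to 12.5 CPM with PNU and 2.04 to 2.96 CPM with DMSO, of which Csf1r rose (edgeR adjusted p = 0.0141), while Ptprc, which defines leukocytes, reached at most 0.235 CPM in any library. The 10 retinal neuron markers, Pax6 among them, summed to 39.7 to 58.6 CPM with PNU and 20.9 to 23.8 CPM with DMSO, and none passed. The 12 pericyte and smooth muscle markers summed to 4438 to 4498 CPM with PNU and 3693 to 3755 CPM with DMSO, and Cnn1 and Mcam rose (edgeR adjusted p = 0.0380 and 0.0192). Of the 15 fibroblast markers Dcn and Lum fell (edgeR adjusted p = 0.0467 and 0.0108), from 53.7 ± 1.43 to 24.5 ± 7.53 CPM for Dcn, and their sums were 21823 to 23582 CPM with PNU and 23664 to 23776 CPM with DMSO. The low endothelial sums were higher with PNU at 6 h (2.62 to 3.17 against 1.51 to 2.11 CPM), and the low RPE sums lower (2.95 to 4.46 against 4.92 to 5.13 CPM). At 2 h the neuron sums (39.6 to 51.5 against 21.0 to 31.4 CPM) and the pericyte sums (4476 to 4919 against 3606 to 4341 CPM) were also higher with PNU. So were the Müller glia sums at 2 h (7622 to 7960 against 6480 to 7552 CPM), which overlapped at 6 h (6821 to 7896 against 6943 to 6993 CPM). Vim made up most of these sums, at 7036 to 7369 CPM with PNU and 6063 to 7068 CPM with DMSO at 2 h. Glul overlapped there (66.7 to 69.3 against 61.5 to 67.3 CPM), and Slc1a3 averaged 0.668 against 1.90 CPM. Of 14 tested Müller glia markers 8 had a positive fold at 2 h, and none passed. The part of culture composition and of division in the results was not tested.

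The genes whose pattern was most like each of 4 members were ranked by Pearson's r of log2(CPM + 1) over the 12 libraries, among 10301 genes with a mean of at least 5 CPM, the members themselves left out of the ranks. Between members, r was 0.988 for Igf2 and H19 and -0.955 for Irs1 and Irs2. The libraries share groups and some nearly coincide, so r is a description. Irs1 was closest to Lfng, a glycosyltransferase that modifies Notch (r = 0.989, 15.4 to 64.4 CPM), then to Mxd4, C87436, Pigc and Nprl2 (r = 0.980 to 0.981). Irs2 was closest to Chst2, a sulfotransferase (r = 0.970, 29.6 to 65.6 CPM), then to Ccdc97, Spata2, Nectin1 and Bag3 (r = 0.956 to 0.966). Igf2 was closest to Bcl2l2, a survival factor of the BCL2 family (r = 0.988, 71.1 to 113.4 CPM), then to Snrpn, Wipi1, Snhg18 and Lacc1 (r = 0.969 to 0.977). H19 was closest to Snrpn, itself an imprinted gene (r = 0.979, 40.9 to 76.2 CPM), then to Wipi1, Ctsd, Rusc1 and Fbxo17 (r = 0.968 to 0.976).

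Around the members, the IGF-binding proteins, which hold IGFs in the medium and tissue, differed between PNU and DMSO at 6 h in 1 gene, Igfbp2. Of 12 tested genes of this list, 1 rose and none fell with PNU at 6 h (list median -0.01, median of all genes -0.00). Igfbp2, already known from earlier results of these data, stood at 3.25, 2.72 and 3.47 CPM with DMSO and at 49.4, 209.8 and 218.0 CPM with PNU at 6 h. Replicate 1 of PNU was again the lowest of its group, and the log2 fold change was 5.67 ± 0.78 (edgeR adjusted p = 0.00929), or 6.10 without that library. The call was lost when any 1 of the 3 DMSO libraries was left out (edgeR adjusted p = 0.0689 to 0.0781) and with the nearly coinciding libraries summed (adjusted p = 1.00). At 2 h it stood at 7.31, 5.08 and 30.6 CPM with DMSO and at 51.7, 60.9 and 59.5 CPM with PNU (2.02 ± 0.66, edgeR adjusted p = 0.0895), with 3.23 and a passing test without replicate 3 of DMSO (edgeR adjusted p = 0.00329; 43.8% of all genes passed). Igfbp5 stood at 18.0 ± 0.261 CPM with DMSO and 16.5 ± 7.23 CPM with PNU at 6 h (edgeR adjusted p = 0.921). At 2 h, Stc1, stanniocalcin, which restrains the protease that frees IGFs from a binding protein, was the member that rose, from 1.97 ± 0.290 to 3.62 ± 0.353 CPM (0.91 ± 0.15, edgeR adjusted p = 0.0366), and none fell. The Stc1 value was 0.83 without replicate 3 of DMSO. Its call was lost in 4 of 6 fits with a library left out (replicates 2 and 3 of PNU, 1 and 2 of DMSO; edgeR adjusted p = 0.0986 to 0.204), with nearly coinciding libraries summed (0.550) and with the 2 h libraries alone (0.266). None of the 12 passed from 2 h to 6 h with PNU by edgeR. An unadjusted p under 0.05 was reached by 5, beside 6022 of all 17164 genes. With DESeq2 2 passed, beside 24.3% of all genes, and 1, Igfals, passed with the replicate block (1.06, edgeR adjusted p = 0.0488). Over all genes 0.21% rose and 0.0816% fell at 2 h, and 0.571% rose and 0.484% fell at 6 h.

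Among genes acting next to the receptors, those that fell from 2 h to 6 h with PNU included the inhibitors Socs2, Ptpn1 and Enpp1. Of 21 tested, 9 fell, 1 rose and 11 did not pass, with a list median of -0.06 beside 0.03 for all genes. Of all genes 8.66% fell and 7.42% rose (1486 and 1273). With libraries scaled by their totals alone 1130 fell and 1710 rose, and in the list 8 fell and 1 rose. Socs2, a feedback inhibitor of cytokine receptors, fell from 128 ± 14.9 to 63.8 ± 2.67 CPM (log2 fold change -1.06 ± 0.15, edgeR adjusted p = 0.00413). Sh2b2, an adaptor that binds Insr, fell from 27.3 ± 4.17 to 8.87 ± 0.0159 CPM (-1.68 ± 0.28, edgeR adjusted p = 0.00659). Ptpn1, the phosphatase that switches Insr off, fell from 84.4 ± 14.4 to 46.7 ± 2.92 CPM, and Enpp1, an inhibitor of Insr, from 50.6 ± 2.89 to 21.3 ± 6.31 CPM (edgeR adjusted p = 0.00965 and 0.0119). Grb10, an imprinted adaptor that inhibits both kinase receptors, rose from 3.58 ± 0.613 to 10.2 ± 3.14 CPM (1.45 ± 0.33, edgeR adjusted p = 0.0187). The count of 10 became 4 to 8 when a PNU library was left out, 13 without both libraries that stand apart and 0 with the nearly coinciding libraries summed. None of the 21 passed edgeR's test with PNU against DMSO at either time. Under an unadjusted p of 0.05 were 14 at 2 h and 5 at 6 h, beside 5149 and 2683 of all 17164 genes.

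In the PI3-kinase, AKT and mTOR list, 7 of 31 tested genes fell from 2 h to 6 h with PNU, none rose and 24 did not pass (list median -0.13), beside 8.66% of all genes falling and 7.42% rising. Ddit4, a stress-induced inhibitor of mTORC1, fell from 108 ± 15.1 to 69.0 ± 14.9 CPM (-0.71 ± 0.15, edgeR adjusted p = 0.0144). It was also the gene of the list that rose with PNU at 2 h, from 58.5 ± 5.08 CPM (0.92 ± 0.15, edgeR adjusted p = 0.0366; 0.97 without replicate 3 of DMSO). That call was lost in the same settings as that of Stc1, with adjusted p-values of 0.112 to 0.550. The AKT phosphatases Phlpp1 and Phlpp2 fell by 0.62 and 0.32, Eif4ebp1, the translation inhibitor that mTORC1 phosphorylates, by 0.56, and Trib3, an AKT-binding pseudokinase, by 1.11 on the log2 scale (edgeR adjusted p = 0.0183, 0.0229, 0.0188 and 0.0327). Pik3r1, a regulatory subunit of PI3-kinase that binds IRS proteins, stood at 145 ± 2.52 CPM with DMSO and at 119.7, 75.5 and 74.3 CPM with PNU at 6 h (-0.67 ± 0.18, edgeR adjusted p = 0.108). The count of 7 became 0 to 3 when a PNU library was left out, 14 without both libraries that stand apart and 0 with the nearly coinciding libraries summed.

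FOXO factors and genes they are known to activate gave 4 risen and none fallen of 19 tested over time with PNU (list median 0.34), beside 7.42% of all genes rising and 8.66% falling. Ccng2, a cell cycle inhibitor, rose from 26.7 ± 1.08 to 52.2 ± 0.975 CPM (0.91 ± 0.12, edgeR adjusted p = 0.00292), and Klf15 from 0.758 ± 0.110 to 3.08 ± 1.62 CPM (1.95 ± 0.52, edgeR adjusted p = 0.0306). Foxo4 rose by 0.54 and Pik3ip1, an inhibitor of PI3-kinase, by 0.81 on the log2 scale (edgeR adjusted p = 0.0324 and 0.0428). Foxo1 stood at 29.5 ± 0.834 CPM at 2 h and 27.0 ± 6.06 CPM at 6 h with PNU (edgeR adjusted p = 0.340). The count of 4 became 1 to 3 when a PNU library was left out, 13 (6 risen, 7 fallen) without both libraries that stand apart, and 0 with the nearly coinciding libraries summed. Without replicate 1 of PNU at 6 h, 1 rose and 2 fell.

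Of 16 tested genes that respond to cAMP and CREB, a route known to induce Irs2 in other tissues, 4 fell over time with PNU and none rose (list median -0.26), beside 8.66% of all genes falling. Nr4a1, an immediate early nuclear receptor, stood at 55.4, 48.9 and 453.4 CPM with DMSO and at 905.9, 669.6 and 678.6 CPM with PNU at 2 h. Replicate 3 of DMSO lay between the other DMSO libraries and the PNU libraries. At 6 h it stood at 87.1 to 89.8 CPM with DMSO and at 98.9 to 115.6 CPM with PNU, and the fall over time with PNU was -2.90 ± 0.72 on the log2 scale (edgeR adjusted p = 0.0254). Fosb, an AP-1 subunit, fell by 3.19, Nr4a3 fell by 2.94 and Crtc3, a CREB coactivator, fell by 0.36 (edgeR adjusted p = 0.00965, 0.0257 and 0.0221). The count of 4 became 6 with the replicate block, 1 to 4 when a PNU library was left out, 6 without both libraries that stand apart and 0 with the nearly coinciding libraries summed.

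Imprinted growth genes other than Igf2 and H19 moved in both directions. Of 17 tested, 5 rose and 2 fell over time with PNU (list median 0.36), beside 7.42% and 8.66% of all genes. Cdkn1c, a cell cycle inhibitor, rose from 1.17 ± 0.175 to 5.59 ± 1.78 CPM (2.19 ± 0.37, edgeR adjusted p = 0.00694), Peg3 by 1.37 and Ndn by 0.66 on the log2 scale (edgeR adjusted p = 0.0117 and 0.0257). Dlk1, a Notch-related ligand, fell from 244 ± 103 to 34.5 ± 9.61 CPM (-2.88 ± 0.39, edgeR adjusted p = 0.00358). Plagl1, a zinc-finger factor known to activate Igf2 and H19, rose with PNU at 2 h from 45.1 ± 12.1 to 82.6 ± 10.9 CPM (0.91 ± 0.15, edgeR adjusted p = 0.0385; 1.14 without replicate 3 of DMSO). Its call too was lost in those settings, with adjusted p-values of 0.116 to 0.550. Igf2bp1, which binds Igf2 mRNA, fell over time with PNU from 37.6 ± 1.66 to 30.7 ± 3.54 CPM (-0.35 ± 0.09, edgeR adjusted p = 0.0221), 1 of 4 tested in its list. With the replicate block 2 of the 4 passed, the other being Hmga2 (-1.65, edgeR adjusted p = 0.0250). The imprinted count of 7 became 3 to 4 when a PNU library was left out, 11 without both libraries that stand apart and 0 with the nearly coinciding libraries summed.

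**Figure D4:**
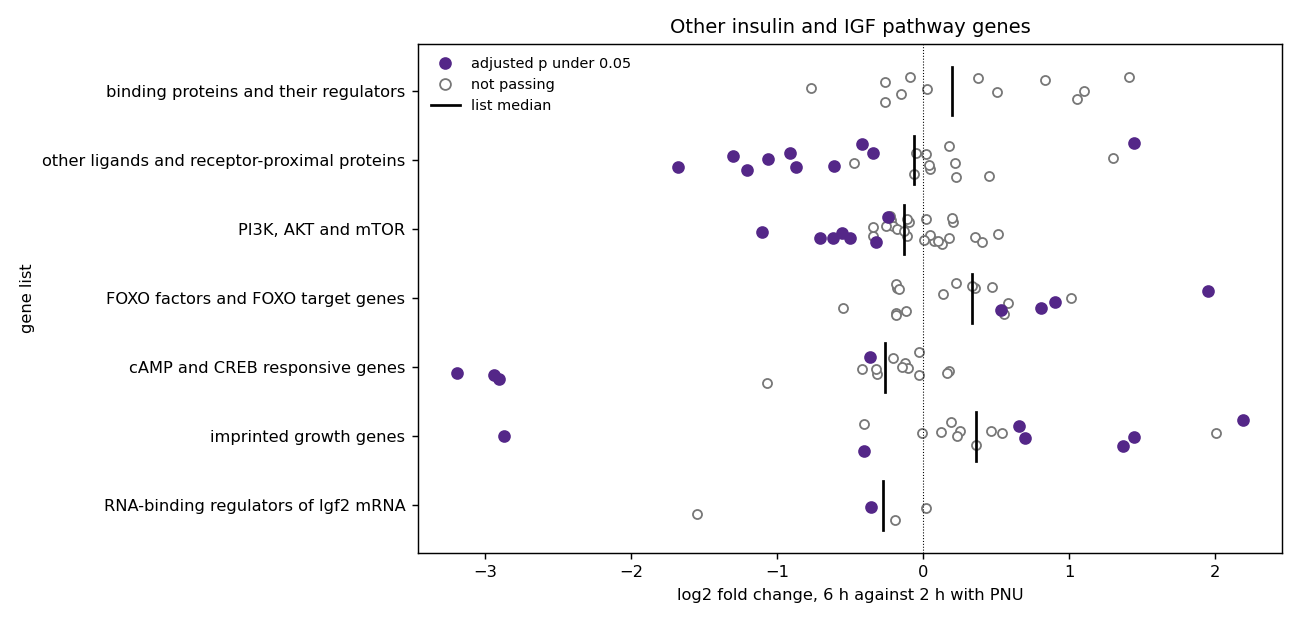
Log2 fold change from 2 h to 6 h with PNU (horizontal axis) of each tested gene in 7 lists around the members (vertical axis), filled where the adjusted p was under 0.05, with a bar at each list's median; vertical scatter within a list has no meaning. The receptor-proximal list has 9 filled points below 0 and 1 above, and the FOXO list has 4 above and none below.

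In the other comparisons these lists gave no further calls with edgeR at the threshold: none of the 7 lists had a passing gene from 2 h to 6 h with DMSO, and apart from Igfbp2 none had one with PNU against DMSO at 6 h. At an unadjusted p under 0.05, between 0 and 4 genes of a list passed for time with DMSO and between 1 and 5 for PNU at 6 h. Of all 17164 genes, 818 and 2683 did. Without both libraries that stand apart, 11 of the receptor-proximal genes (3 risen, 8 fallen) and 9 of the FOXO genes (1 risen, 8 fallen) passed at 6 h, a setting of narrow spread in which 28.6% of all genes did.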

How the data were processed

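Per the labels' protocols, the libraries were poly(A)-selected and read as 150 bp pairs; the authors used fastp 0.23.2 for trimming, STAR 2.5.2b for alignment to GRCm38, and featureCounts (Subread 1.5.2) for counts. The deposited values are raw counts per gene; the submitters' processing notes name DESeq2 with no role. Strand and multi-mapping settings are not given in the sources used here. Symbols came from GENCODE M21 for 48970 of 49315 identifiers. Groups came from the sample titles.

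Counts were tested with edgeR 4.0.16 (R 4.3.3): filterByExpr (17164 genes kept, all 8 members among them), TMM, and a robust quasi-likelihood fit of 4 group means over 12 libraries, with Benjamini-Hochberg adjustment over all tested genes and a threshold of 0.05. SE is the fold's size over the square root of F. CPM are plain, not TMM-scaled. The fit was also run on simulated counts, drawn independently for each library with a common dispersion. These held no nearly coinciding libraries and none that stand apart, so they do not measure error rates in these data. The members and gene lists were chosen with earlier results of these data known, so their p-values are no independent support. Irs1 and Irs2 were tested only between PNU and DMSO at 6 h, in a fit whose dispersion also uses the 2 h libraries that chose them. Named genes are the members, up to 5 passing genes of smallest p per list and comparison whose higher group averaged 1 CPM or more, a few named whatever their values (Igfbp2, Igfbp5, Grb10, Foxo1, Ddit4, Pik3r1, Ddx3y), and the 5 genes most like Irs1, Irs2, Igf2 and H19; other names, among them Ins1, Ins2, Airn and the culture markers, were chosen after their values were seen.

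Alternatives were RLE and library-total scaling, DESeq2 1.42.0, limma-voom (limma 3.58.1), no filter, a filter of 1 CPM in 3 libraries, a replicate block, no robust estimation, nearly coinciding libraries summed, each contrast's libraries alone, both libraries that stand apart left out, and each library left out. Same-numbered PNU libraries deviated together between the times (correlations 0.281, 0.231 and 0.222). Replicates 2 and 3 nearly coincide in both PNU groups, so these values are not independent of each other. A positive value means that replicate 1 departed from the others partly in the same direction at both times. Why it did was not tested. These correlations cannot tell whether the numbers pair cultures, and the labels do not say. Ddx3y was highest in replicate 1 of PNU at 2 h and in replicates 2 and 3 of PNU at 6 h.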

Additional observations from a re-analysis of the deposited data

How the results depend on the processing

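Counts of passing genes moved most with the choice of libraries. For PNU against DMSO at 6 h (181) the count was 923 with DESeq2, 296 with a replicate block, 0 with nearly coinciding libraries summed (267 at an unadjusted p under 0.05), 1646 with the libraries of the comparison alone, 4981 without both libraries that stand apart, and 22 to 1057 with a library left out, the highest without replicate 1 of PNU. At 2 h (50) it was 2511 with DESeq2, 140 without the low-count filter, 311 with the block, 0 with libraries summed (1487 unadjusted), 0 with the comparison alone, 9080 without both, and 0 to 7724 with a library left out, the highest without replicate 3 of DMSO. For time with DMSO (0) it was 23 with DESeq2, 117 without both and 0 to 4 with a library left out. For time with PNU (2759) it was 0 with libraries summed (2236 unadjusted), 5311 alone, 6170 without both, 566 to 1710 with a library left out, and 2847 with the replicate block. In the other comparisons same-numbered libraries correlated at -0.04 to 0.11, and the block changed no call of a member. Among the lists' other genes it added or removed 6 calls for time with PNU and 2 for PNU at 2 h, each with an adjusted p of 0.0250 to 0.0679 under the block. Causes were not tested; summing leaves fewer libraries.

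Of the members' folds, those that changed sign were near 0 or rest on replicate 3 of DMSO at 2 h. Igf2r at 6 h was 0.00098 with RLE scaling and with DESeq2, 0.0016 with the stricter filter, and -0.018 to 0.011 with a library left out; Igf1r at 6 h was -0.0029 with libraries summed. For time with DMSO, limma-voom gave 0.038 for Irs1 and 0.45 for H19. There, without both libraries that stand apart, Igf2r was -0.082, Igf1 0.55 and Igf2 -0.33. Also there, with a library left out, Irs1 ran from -0.40 to 0.17, Irs2 from -0.079 to 0.19, Insr from -0.013 to 0.095, Igf2r from -0.085 to 0.17, Igf1 from -0.66 to 0.55, Igf2 from -0.33 to 0.49 and H19 from -0.62 to 0.34. For time with PNU, Insr was 0.021 with library totals, and Igf1 ran from -0.022 to 0.58 with a library left out. The Igf1 difference of PNU effects ran from -0.30 to 0.91. In that test the calls of Igf2, H19 and Igf2r appeared only in the settings named above. Igf2r for time with PNU also passed with library totals (0.40) and with the comparison alone (0.34), and H19 at 6 h passed with the comparison alone (1.77). Alternatives for the difference of effects were added after the data were seen. Depth did not limit the members: the lowest count of any member in a library was 41, for Igf2.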
